A study of Mus musculus with 2 samples.

Results

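The cells described here were chosen as leptotene and zygotene spermatocytes, the earliest germ cells of meiotic prophase, in droplet single-cell RNA sequencing of mouse testis. In each of 2 libraries, barcodes with 1000 to 8000 unique molecular identifiers (UMIs, 1 per captured RNA molecule) and fewer than 2 summed UMIs of the spermatogonial genes Kit, Lin28a and Crabp1 were ranked. The rank was the share of a barcode's UMIs that came from Prdm9, Dmc1, Meiob, Hormad1, Meioc, Rad51ap2 and Spata22, and the 200 barcodes with the highest share were taken. This gave 400 cells of 26466 barcodes in all, 200 of 13805 in one library and 200 of 12661 in the other. The number per library was fixed by this rule and says nothing about how common the cells are.

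The testes came from male C57 BL/6 mice. In the study, 20 mice of 5 weeks had 1 week to adapt and were then divided at random into 10 on maintenance feed and 10 on feed with 60% of its energy as fat, each for 12 weeks. The series is about long high-fat feeding from puberty and the making of sperm. There was 1 library per group, so there are no replicates and no test between groups. High-fat feeding is stated in 1 label. The second label gives testis tissue without a diet, and that library is called the unlabelled-diet library here. Whether a library held 1 mouse or a pool of several was not given in the sources used here. Pairs of values are given with the unlabelled-diet library first and the high-fat library second, and "higher" or "lower" between them compares these 2 libraries and not the diets.

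Meiosis begins when germ cells, after a last round of DNA replication, switch on a meiotic program under STRA8 and MEIOSIN. In leptotene, SPO11 and its partners cut the DNA at sites that PRDM9 marks on chromatin, and chromosomes are folded along an axis of SYCP2, SYCP3, HORMAD proteins and cohesin. In zygotene, the recombinase DMC1 helps broken ends search for the homologous chromosome, and the central region of the synaptonemal complex, built on SYCP1, starts to zip homologues together. Pachytene cells, the next stage, have full synapsis, silence the X and Y chromosomes and are far more abundant in the adult testis.

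The summed counts of the chosen cells were 448002 and 580824 UMIs, with medians of 1877.5 and 2297.5 UMIs and 1256.5 and 1573.5 genes per cell, against medians of 2099 and 2037 UMIs in other barcodes of 1000 to 8000 UMIs. Over all barcodes the medians were 13024 and 9772 UMIs, which the upper limit of the rule keeps the chosen cells from reaching. Levels are given as CPM, the usual scaling of a gene's summed counts by the total UMIs of the same cells. Their intervals are exact 95% Poisson intervals, those of ratios are exact conditional binomial 95% intervals, and all cover counting error only.

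The rule drew its line at few marker molecules. In the unlabelled-diet library the last cell taken had 1 marker UMI of 1100 (a share of 0.0909%) and the first left out had 2 of 2201 (0.0909%). In the high-fat library the last cell taken had 2 of 1567 (0.128%) and the first left out had 7 of 5503 (0.127%). Cells had a median of 3 and 5 marker UMIs, and 46 and 26 of the 200 lay within 10% of the line. The Kit, Lin28a and Crabp1 limit had removed 270 and 274 barcodes of that depth. A fixed demand, a marker share of at least 0.1% with 3 or more marker UMIs, was met by 97 of 4604 eligible barcodes in the unlabelled-diet library, which is 2.11% (exact 95% binomial interval 1.71 to 2.56). In the high-fat library it was met by 203 of 5667, which is 3.58% (3.11 to 4.10). The libraries also differed in depth, and its part in this difference was not tested.

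Promoters of the 7 marker genes from RefSeq (GRCm38.p6) were searched over 250 bases before the gene's start, on both strands, for the letters TCCCGC (the core of the E2F6 motif), CACGTG (the E-box) and CNCCTCAG (a motif known for STRA8). Matches of different motifs may share bases. An entry was found for 6 of the 7 genes, and TCCCGC was present in 6 of these 6, against 18.8% of 27025 genes of the table. Over 7 lists of meiotic genes with 80 matched promoters, TCCCGC was in 37 (46.2%), CACGTG in 13 (16.2%, against 6.86% of all genes) and CNCCTCAG in 9 (11.2%, against 7.39%). A match describes letters in this window and is not a binding site. Promoters of 4 of the chosen markers and of Sycp3, a gene the rule did not use, are shown because the cells were defined by the former and Sycp3 is a main gene of the results, with motif letters in capitals (GCGGGA is TCCCGC on the other strand). The windows are chr15:79605110-79605359 on the minus strand for Dmc1, chr12:11455805-11456054 on the plus strand for Rad51ap2, chr11:73329491-73329740 on the plus strand for Spata22, chr3:95559427-95559676 on the plus strand for Hormad1 and chr10:88459337-88459586 on the plus strand for Sycp3.
Dmc1: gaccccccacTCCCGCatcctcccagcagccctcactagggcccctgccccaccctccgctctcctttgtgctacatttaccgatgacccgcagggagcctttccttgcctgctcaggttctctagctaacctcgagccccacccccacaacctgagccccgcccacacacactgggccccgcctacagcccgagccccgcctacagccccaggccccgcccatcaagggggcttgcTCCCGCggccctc
Rad51ap2: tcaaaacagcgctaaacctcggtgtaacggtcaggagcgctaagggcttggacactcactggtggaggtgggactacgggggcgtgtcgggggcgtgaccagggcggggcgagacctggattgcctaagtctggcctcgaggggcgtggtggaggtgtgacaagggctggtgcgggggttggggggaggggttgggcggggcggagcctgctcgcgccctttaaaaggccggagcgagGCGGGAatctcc
Spata22: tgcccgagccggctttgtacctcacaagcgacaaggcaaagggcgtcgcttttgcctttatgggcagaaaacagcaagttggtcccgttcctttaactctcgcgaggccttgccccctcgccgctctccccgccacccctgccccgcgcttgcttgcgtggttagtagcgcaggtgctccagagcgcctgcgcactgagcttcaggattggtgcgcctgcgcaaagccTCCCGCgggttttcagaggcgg
Hormad1: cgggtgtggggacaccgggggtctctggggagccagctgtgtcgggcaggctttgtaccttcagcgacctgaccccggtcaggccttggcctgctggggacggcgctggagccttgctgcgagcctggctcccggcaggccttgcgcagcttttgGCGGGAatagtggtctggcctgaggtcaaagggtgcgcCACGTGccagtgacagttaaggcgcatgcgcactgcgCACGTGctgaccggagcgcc
Sycp3: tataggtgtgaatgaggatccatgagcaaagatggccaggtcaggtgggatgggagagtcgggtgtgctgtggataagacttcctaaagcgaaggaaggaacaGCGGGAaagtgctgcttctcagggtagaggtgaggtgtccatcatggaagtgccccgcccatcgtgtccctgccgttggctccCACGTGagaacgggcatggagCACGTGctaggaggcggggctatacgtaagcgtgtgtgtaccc

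Whether the marker genes went together was read with each gene outside the choice. Each marker was left out in turn, 200 barcodes were chosen with the other 6 genes, and the left-out gene was read in them. Dmc1, the meiosis-specific recombinase, stood at 194 and 225 CPM in cells chosen without it and at 10.3 and 13.6 CPM in the remaining eligible barcodes, 18.9-fold (14.1 to 25.1) and 16.5-fold (13.1 to 20.7) higher. Meiob, which binds single-stranded DNA at recombination sites together with Spata22, was 17.7-fold higher in each library (12.1 to 25.6 and 13.9 to 22.5). Spata22 was 15.4-fold (6.96 to 32.6) and 15.0-fold (8.31 to 26.4) higher, on 12 and 21 UMIs. Rad51ap2 was 44.1-fold and 24.7-fold higher, and Prdm9, the methyltransferase that places break sites, was 31.4-fold and 10.9-fold higher. The remaining pair was enriched less: Hormad1, an axis protein, was 4.77-fold and 6.81-fold higher, and Meioc, which holds germ cells in the meiotic program, was 4.07-fold and 5.84-fold higher. All 7 left-out genes were thus higher in the cells chosen without them, in both libraries. Of the 200 barcodes chosen each time, 143 to 197 were also among the cells described here. The 7 genes were themselves chosen with earlier results of these data known. The comparison was with all remaining eligible barcodes, so it does not separate the chosen cells from pachytene cells.

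**Figure D1:**
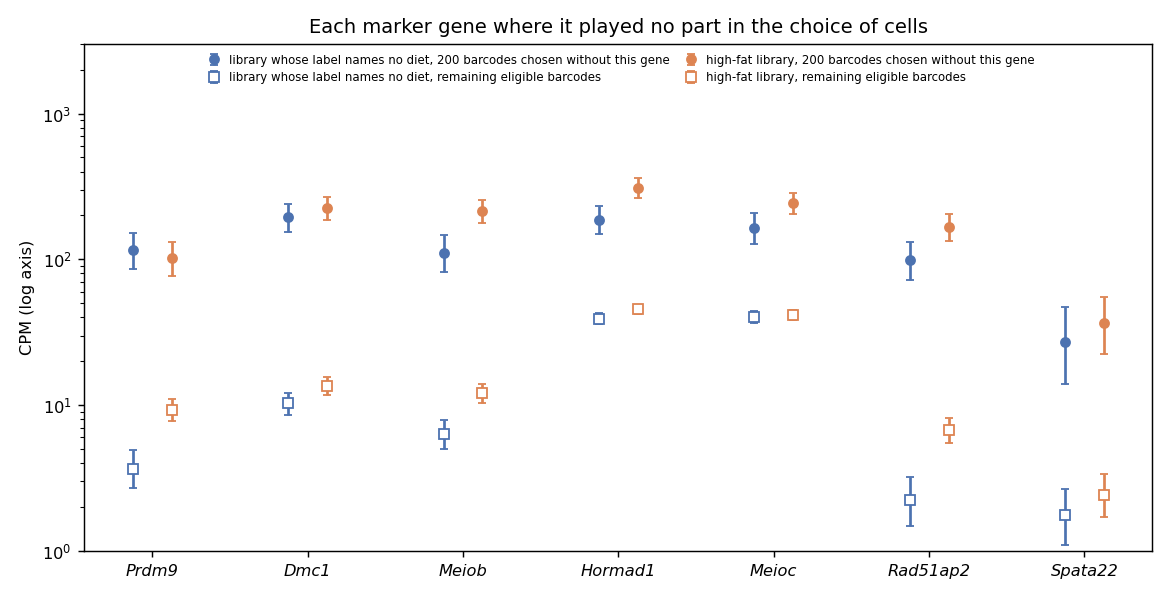
Level in CPM (log axis) of each marker gene in the 200 barcodes chosen with the other 6 genes (filled circles) and in the remaining eligible barcodes (open squares), by library. Bars are exact 95% Poisson intervals. For each of the 7 genes the filled circle lies above the open square, from 4.07-fold for Meioc in the unlabelled-diet library to 44.1-fold for Rad51ap2 in the same library.

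The cells were not alike, and their content of synaptonemal complex transcripts moved with the number of marker UMIs. Sycp1 and Sycp3, which encode the transverse filament and an axis protein of the synaptonemal complex and were no part of the rule, were summed within classes. In the unlabelled-diet library, 31 cells had only 1 marker UMI, and in them Sycp1 and Sycp3 stood at 153 CPM (49.6 to 357), while other barcodes of the same depth range stood at 233 CPM. The interval of these 31 cells includes the level of other barcodes, so this measure does not set them apart as spermatocytes. Their elongating spermatid genes stood at 6666 CPM, against 2748 CPM in cells with 5 or more marker UMIs. The 67 cells with 2 marker UMIs stood at 1250 CPM, the 55 with 3 or 4 at 1491 CPM and the 47 with 5 or more at 2849 CPM. In the high-fat library no cell had 1 marker UMI, the 32 cells with 2 stood at 957 CPM, the 63 with 3 or 4 at 2464 CPM, the 105 with 5 or more at 4318 CPM and other barcodes at 331 CPM. Cells of the high-fat library were thus concentrated in the classes with more marker molecules, and within the classes of 3 or more UMIs their Sycp1 and Sycp3 level was higher too.

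Depth moved in the same direction. Cells of under 2000 UMIs (111 and 82 of 200) had 1052 and 2070 CPM of Sycp1 and Sycp3, those of 2000 to under 4000 UMIs (70 and 69) had 2100 and 3292 CPM, and those of 4000 to 8000 UMIs (19 and 49) had 2670 and 4796 CPM. At least 2 different markers were seen in 140 and 176 cells and at least 3 in 58 and 129. Going down the rank, the summed Sycp1 and Sycp3 level went from 2279 and 4086 CPM in the first 100 cells to 1453 and 3350 CPM in the next 100 and to 882 and 1739 CPM in the 200 barcodes ranked after them, which the rule left out. The barcodes just past the line were therefore still above other barcodes.

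**Figure D2:**
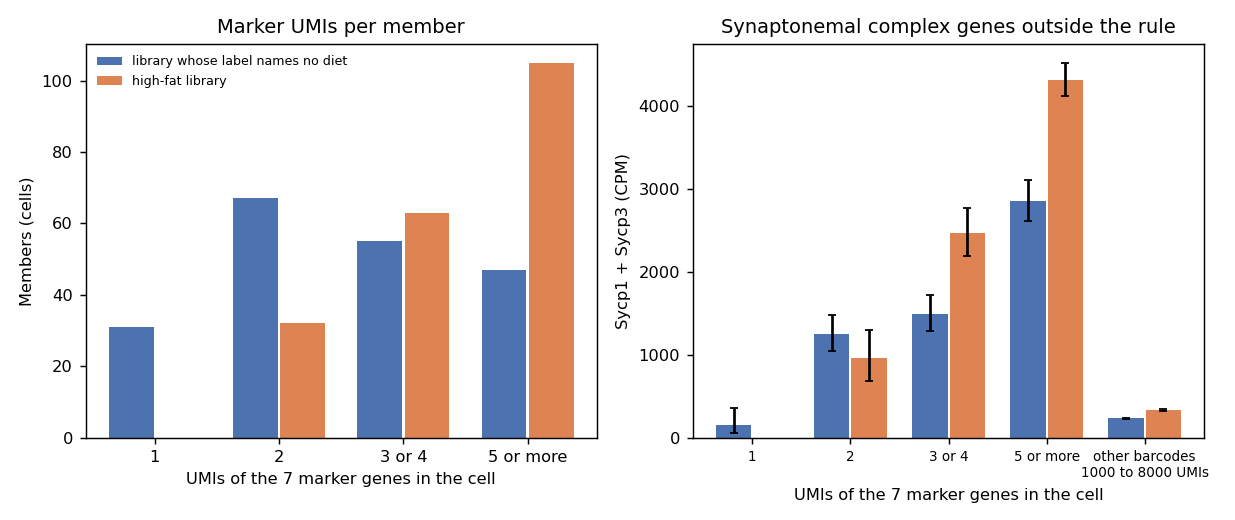
Left, number of chosen cells by the UMIs of the 7 marker genes they held, per library. Right, summed level of Sycp1 and Sycp3 in CPM in the same classes and in other barcodes of 1000 to 8000 UMIs, with exact 95% Poisson intervals. The level goes from 153 CPM with 1 marker UMI to 2849 CPM with 5 or more in the unlabelled-diet library and from 957 to 4318 CPM in the high-fat library.

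To place the cells among the stages, comparison cells of 200 barcodes per kind and library were chosen by other genes: differentiating spermatogonia by Kit, Lin28a and Crabp1, pachytene spermatocytes by Piwil1, Mybl1 and Ly6k, round spermatids by Acrv1, Spaca1 and Tssk1, and Sertoli cells, the somatic nurse cells, by Clu, Amhr2, Sox9, Cldn11 and Aard. Of the pachytene cells, 34 and 40 were also among the leptotene and zygotene cells, and they were kept in both. Pachytene cells and round spermatids were not held to the upper UMI limit, and reached 57654 and 104689 UMIs and 19968 and 22277 UMIs. Pachytene cells had medians of 5955 and 3871 UMIs, against 1877.5 and 2297.5 in the chosen cells and 2396.5 and 2539.5 in spermatogonia. Comparisons with pachytene cells were thus not matched for depth, and the part of depth in them is not separated here. A gene entered a comparison where the higher of its levels would give 20 counts in the smaller summed depth, so a gene could enter through the side on which it was high. Over all genes entered, 21.7% of 5450 were at least 2-fold higher than in pachytene cells in both libraries and 6.92% at least 2-fold lower. Against spermatogonia the shares were 14.2% and 8.46% of 5677 genes, and against other barcodes of the depth range 25.9% and 10.3% of 5798 genes. Counts of list genes past 2-fold, given below, are to be read beside these shares. The median log2 difference over all genes was 0.25 and 0.15 against pachytene cells and 0.33 and 0.16 against spermatogonia.

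Of the genes of meiotic entry, some stood above both neighbouring stages and Stra8 above pachytene cells alone. Stra8, the retinoic acid-induced switch into meiosis, stood at 118 and 143 CPM, at 126 and 128 CPM in spermatogonia and at 16.1 and 23.1 CPM in pachytene cells. Gm4969, which encodes its partner MEIOSIN, stood at 49.1 and 51.7 CPM, above both spermatogonia (8.50 and 8.23 CPM) and pachytene cells (4.69 and 10.4 CPM). Ythdc2, an RNA helicase that works with MEIOC, stood at 82.6 and 80.9 CPM, against 18.7 and 16.5 CPM in spermatogonia and 27.5 and 31.7 CPM in pachytene cells. Of 8 entered genes of this list, 4 (Dazl, Gm4969, Stra8 and Ythdc2) were at least 2-fold higher than in pachytene cells in both libraries and 0 were lower. Against spermatogonia, Gm4969, Tex101 and Ythdc2 were higher and Sohlh1, a spermatogonial transcription factor, was lower.

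Genes of the chromosome axis and cohesin were high in the chosen cells. Sycp3 stood at 1013 (922 to 1111) and 2252 (2132 to 2377) CPM, at 150 and 145 CPM in spermatogonia and at 747 and 1212 CPM in pachytene cells. Sycp2, its axis partner, stood at 730 and 806 CPM, above spermatogonia (52.7 and 87.2 CPM) and pachytene cells (408 and 415 CPM). Smc1b, the meiotic cohesin subunit, stood at 661 and 620 CPM, against 254 and 320 CPM in pachytene cells. Hormad2, an axis protein that marks unsynapsed chromosomes, stood at 118 and 170 CPM, against 48.9 and 50.2 CPM in pachytene cells. Of 10 entered genes, 5 (Hormad2, Pds5b, Smc3, Stag1 and Wapl) were at least 2-fold higher than in pachytene cells in both libraries and 0 lower. Of 11 entered against spermatogonia, 7 were higher, Sycp2 and Sycp3 among them, and Rad21, a mitotic cohesin subunit, was lower. Rec8, the meiotic cohesin kleisin, stood at 26.8 and 25.8 CPM on 12 and 15 counts, below other barcodes of the depth range (39.0 and 40.4 CPM). In spermatogonia it stood at 23.8 and 18.1 CPM and in pachytene cells at 6.70 and 13.3 CPM.

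The central region of the synaptonemal complex was already transcribed. Sycp1 stood at 859 (776 to 950) and 1450 (1353 to 1551) CPM, against 78.2 and 114 CPM in spermatogonia and 383 and 600 CPM in pachytene cells. The gene 4930447C04Rik, which encodes the central element protein SIX6OS1, stood at 435 and 690 CPM, against 66.3 and 59.2 CPM in spermatogonia and 99.8 and 171 CPM in pachytene cells. Syce2 stood at 462 and 499 CPM, more than 2-fold above pachytene cells (193 and 182 CPM). Syce3 and Syce1 did not have this pattern: Syce3 stood at 487 and 768 CPM with 604 and 563 CPM in pachytene cells, and Syce1 at 429 and 339 CPM with 484 and 470 CPM. Of 6 genes, 3 (4930447C04Rik, Syce2 and Sycp1) were at least 2-fold above pachytene cells and 4 (4930447C04Rik, Syce3, Sycp1 and Tex12) above spermatogonia in both libraries.

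The break-forming genes separated the chosen cells from pachytene cells most often among the meiotic lists, with 8 of 11 entered genes at least 2-fold higher in both libraries and 0 lower. Zcwpw1, which reads the histone marks that PRDM9 writes, stood at 493 and 534 CPM, against 99.8 and 140 CPM in pachytene cells and 177 and 160 CPM in spermatogonia. Hells, a chromatin remodeller that opens PRDM9 sites, stood at 440 and 387 CPM, against 79.1 and 91.7 CPM in pachytene cells. Ankrd31 and Ccdc36 (IHO1), which load the break machinery on the axis, stood at 194 and 229 CPM and at 129 and 138 CPM, against 57.0 and 96.9 CPM and 22.8 and 28.8 CPM in pachytene cells. Spo11, which makes the cut, stood at 84.8 and 70.6 CPM, above spermatogonia (13.6 and 28.0 CPM), with 54.9 and 87.1 CPM in pachytene cells. Of 13 break genes entered against spermatogonia, 6 were at least 2-fold higher in both libraries and Ehmt2, a histone methyltransferase, was lower.

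Strand exchange and repair genes were divided. Tex15, a gene needed for loading the recombinases, stood at 437 and 353 CPM, against 43.6 and 46.1 CPM in pachytene cells and 139 and 100 CPM in spermatogonia. Brca2, which helps load DMC1, stood at 270 and 239 CPM, against 87.1 and 86.5 CPM in pachytene cells. Psmc3ip, whose product HOP2 helps DMC1 in homology search, was in contrast lower than in pachytene cells, at 254 and 170 CPM against 499 and 529 CPM. Of 16 entered genes, 5 (BC055324, Brca2, Brip1, Rad50 and Tex15) were at least 2-fold above pachytene cells in both libraries and 0 at least 2-fold below. Of 17 entered against spermatogonia, 5 were higher and Rpa2, a subunit of the single-strand binding complex, was lower.

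Genes for crossover formation were on in the same cells. Hfm1, a helicase needed for crossovers, stood at 127 and 193 CPM, against 1.70 and 4.94 CPM in spermatogonia and 63.0 and 75.6 CPM in pachytene cells. Shoc1 stood at 112 and 63.7 CPM, with 12.7 CPM in pachytene cells of each library. Msh5, of the complex that steadies recombination intermediates, stood at 136 and 155 CPM, against 35.5 and 33.5 CPM. Of 9 entered genes, 5 (Hfm1, Msh4, Msh5, Rnf212b and Shoc1) were at least 2-fold above pachytene cells in both libraries. Cntd1, a late crossover factor, went the other way, at 53.6 and 79.2 CPM against 160 and 121 CPM in pachytene cells.

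For telomere attachment, which draws chromosome ends to the nuclear envelope, 4 of 9 entered genes (Ccdc155, Majin, Terb1 and Terb2) were at least 2-fold above spermatogonia in both libraries and Lmnb1, a nuclear lamina gene, at least 2-fold below, and Terb1 alone of 8 was so above pachytene cells. Terb1 stood at 107 and 115 CPM, against 23.8 and 19.7 CPM in spermatogonia and 49.6 and 54.2 CPM in pachytene cells. Genes of the machinery that silences unsynapsed chromatin were also present before pachytene. Atr, the kinase that starts this silencing, stood at 453 and 444 CPM, against 81.6 and 62.5 CPM in spermatogonia and 286 and 283 CPM in pachytene cells. Mdc1, which spreads the mark, stood at 272 and 220 CPM, against 47.6 and 37.8 CPM in spermatogonia. Of 10 entered silencing genes, 7 were at least 2-fold above spermatogonia in both libraries, and of 9 entered, 3 (Hormad2, Scml2 and Setdb1) above pachytene cells.

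Summed over the axis, central region and break lists (38 genes), the level was 1.96-fold (1.89 to 2.04) and 2.06-fold (2.00 to 2.13) that of pachytene cells and 2.58-fold (2.44 to 2.72) and 3.66-fold (3.47 to 3.86) that of spermatogonia. The order of stages held in each library, and the size against spermatogonia differed between the libraries.

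**Figure D3:**
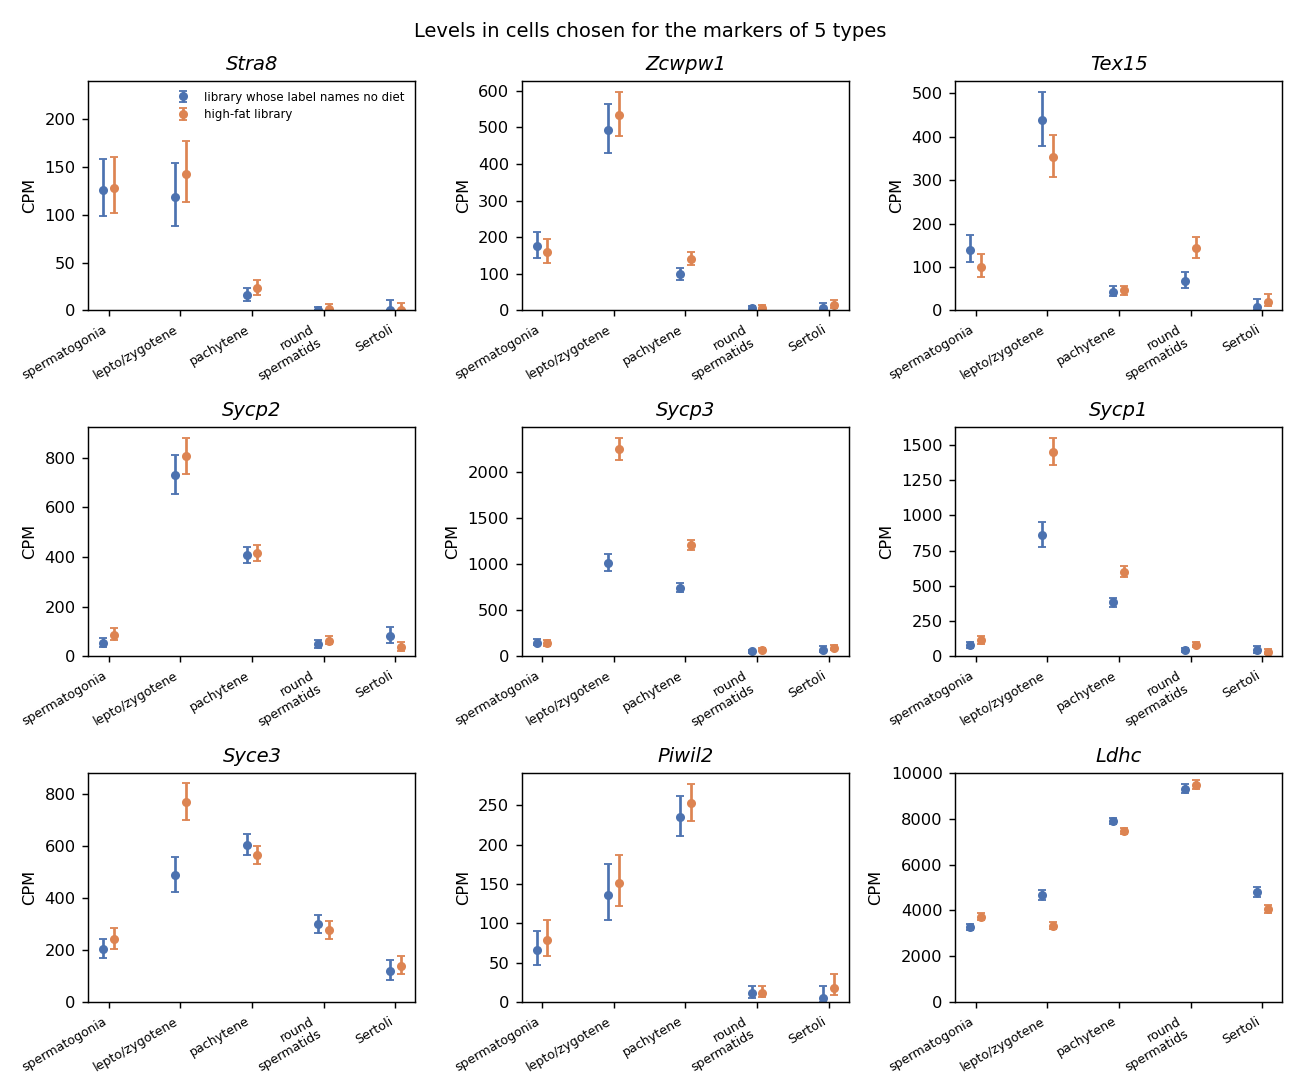
Levels in CPM of 9 genes in differentiating spermatogonia, in the chosen leptotene and zygotene cells, in pachytene cells, in round spermatids and in Sertoli cells, by library, with exact 95% Poisson intervals. Zcwpw1, Tex15, Sycp1, Sycp2 and Sycp3 are highest in the chosen cells in both libraries, Stra8 is shared with spermatogonia (126 and 128 CPM), and Piwil2 and Ldhc are higher in pachytene cells than in the chosen cells.

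X-linked genes were expressed in the chosen cells. They gave 1.30% (1.26 to 1.33) and 1.55% (1.51 to 1.58) of all UMIs (exact 95% binomial intervals), above spermatogonia at 1.16% and 1.10% and pachytene cells at 0.272% and 0.372%. The share was 0.854% and 1.28% in round spermatids, 0.891% and 1.13% in other barcodes of the same depth range and 0.456% and 0.608% over all barcodes. A gene's kind and X linkage were taken from GENCODE M21, in which 39109 of 39232 gene identifiers matched. Among genes with at least 20 counts in the spermatogonia of each library, a choice made after seeing the data that uses neither side of the comparison, 53 of 56 X-linked genes in the unlabelled-diet library and 52 of 56 in the high-fat library were at least 2-fold higher in the chosen cells than in pachytene cells. Over all 4987 genes chosen this way, 27.8% and 25.7% were. The median X-linked log2 difference was 3.02 and 2.16, against 0.27 and 0.20 over all such genes. The pachytene cells were deeper here too, since depth was not matched.

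Single X-linked genes had the same direction. Scml2, a Polycomb-related protein of germ cells, stood at 152 and 238 CPM, against 10.7 and 39.2 CPM in pachytene cells. Fmr1, which encodes the RNA-binding protein lost in fragile X syndrome, stood at 176 and 215 CPM, against 20.8 and 36.3 CPM. Tex11, an X-linked crossover factor, stood at 42.4 and 68.9 CPM, against 6.70 and 9.23 CPM. The levels in pachytene cells were higher in the high-fat library in each of these 3 genes, and 34 and 40 of the pachytene cells were the chosen cells themselves.

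**Figure D4:**
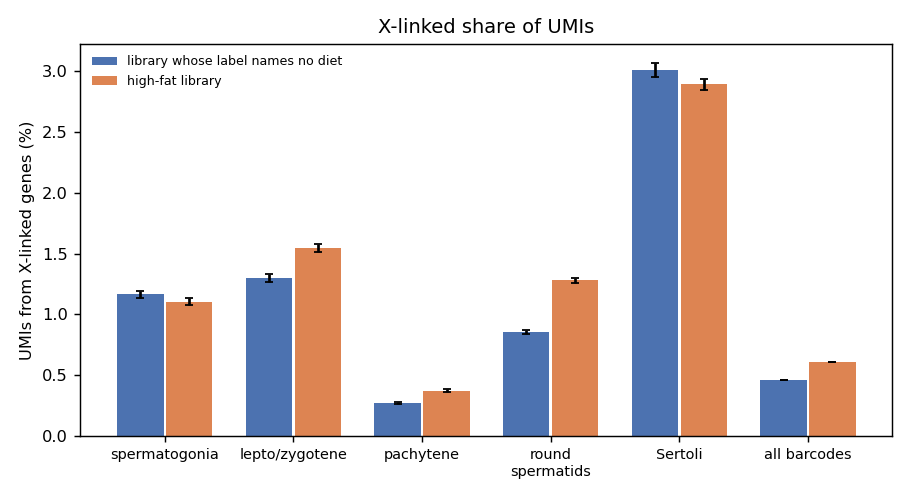
Share of UMIs (%) from X-linked genes in 5 kinds of cells and over all barcodes, by library, with exact 95% binomial intervals. The chosen cells (1.30% and 1.55%) stand above pachytene cells (0.272% and 0.372%) and below Sertoli cells (3.01% and 2.89%).

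Genes of other programs differed in where they placed the cells. The DNA replication list summed to 1842 and 1377 CPM, between spermatogonia (2234 and 1953 CPM) and pachytene cells (1120 and 1215 CPM). Of the DNA replication list, 0 of 19 entered genes were at least 2-fold above spermatogonia in both libraries and Mcm2 and Tyms were lower, at 8.93 and 13.8 CPM against 114 and 120 CPM for Mcm2. The mitotic division list summed to 2542 and 2245 CPM, above both spermatogonia (2020 and 1944 CPM) and pachytene cells (1405 and 1407 CPM), although its median log2 difference from spermatogonia was 0.30 and −0.09. Of its 16 genes, 9 were at least 2-fold above pachytene cells, among them Top2a and Mki67, against 21.7% of all genes. Above spermatogonia were 2 of 16 (Bub1 and Top2a), near the share of 14.2% of all genes. The 2 lower replication genes of 19 likewise lie near the share of 8.46%. For the piRNA pathway, whose small RNAs silence transposons, 0 of 15 entered genes were at least 2-fold above pachytene cells in both libraries, and Pld6, Tdrd1 and Tdrd5 were below. Piwil2, the PIWI protein of early germ cells, stood at 136 and 152 CPM, against 66.3 and 79.0 CPM in spermatogonia and 235 and 253 CPM in pachytene cells.

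The pachytene list summed to 11335 and 8800 CPM, against 22061 and 19291 CPM in pachytene cells, but its median log2 difference was 0.10 and −0.22, of different sign in the libraries. The list holds Piwil1, Mybl1 and Ly6k, by which the pachytene cells were chosen, so part of the difference was set by that choice. Piwil1, which was used to choose the pachytene cells, stood at 246 and 51.7 CPM, against 1619 and 1152 CPM there. Ybx2, an RNA-binding protein, stood at 1792 and 1310 CPM, against 6171 and 4396 CPM, and Hspa2, a chaperone of pachytene cells, at 522 and 563 CPM, against 1176 and 1475 CPM. Ldhc, the testis lactate dehydrogenase, stood at 4670 and 3340 CPM, against 7899 and 7483 CPM in pachytene cells and 3275 and 3721 CPM in spermatogonia. Of 16 entered genes of the pachytene list, 4 (Hspa2, Piwil1, Ybx2 and Ybx3) were at least 2-fold lower than in pachytene cells in both libraries and Spag6 was higher. Of 33 oxidative phosphorylation genes, 7 were lower than in pachytene cells, among them the testis isoforms Cyct, Cox6b2 and Cox8c, and Cycs and Ndufa1 were higher. Cyct, the testis cytochrome c, stood at 212 and 93.0 CPM, against 789 and 645 CPM in pachytene cells, while Cycs is the somatic form.

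Outside the 7 markers, 1864 genes had enough counts to be ranked by their excess over other barcodes of the same depth range, taking the lower of the 2 libraries. The 15 that led included 3 genes of known meiotic function, 4930447C04Rik (19.4-fold and 19.0-fold), Tex12 (13.1-fold and 13.7-fold) and Hfm1 (13.8-fold and 12.7-fold), as well as Esco2, a cohesin acetyltransferase (13.0-fold and 13.3-fold). Pet2 led at 31.3-fold and 22.1-fold, and it is X-linked like Gm364, Scml2 and Fmr1, which makes 4 X-linked genes of 15. Of the 1864 ranked genes, 17 (0.912%) were X-linked. The homeobox gene Pbx3 stood at 400 and 300 CPM, against 12.0 and 19.1 CPM in other barcodes, 18.7 and 23.0 CPM in spermatogonia and 44.9 and 45.6 CPM in pachytene cells. The adhesion gene Sdk1 stood at 422 and 417 CPM, against 24.5 and 22.6 CPM in other barcodes. Prss50, a testis protease gene, stood at 509 and 491 CPM, against 66.3 and 47.7 CPM in spermatogonia, although it had been listed as a marker of them. The others were Eml5, Acer3, Pdlim5 and Ccdc152. On the other strand, Ccdc152 overlaps Selenop, Tex12 overlaps Il18, 4930447C04Rik overlaps Six6 and Pbx3 overlaps C79798. Also on that strand, Eml5 overlaps Zc3h14 among others, Hfm1 overlaps Olfr719-ps, and Sdk1 and Fmr1 overlap genes with Gm names. Eml5, Fmr1 and Hfm1 overlap genes with Gm names on their own strand. Whether counting used strand was not given in the sources used here, so reads of such pairs may be shared.

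Transcripts of other cell types were present in the chosen cells. The 12 genes of elongating spermatids, such as the protamines, summed to 3312 and 5079 CPM, with none of the 12 at 0 and medians of 6 and 14 UMIs per cell. Over all barcodes they summed to 8187 and 10995 CPM, and in other barcodes of the depth range to 16014 and 16930 CPM. In pachytene cells they summed to 1796 and 2574 CPM and in spermatogonia to 2847 and 5674 CPM. Prm1, a protamine made only in spermatids, stood at 437 and 534 CPM. The level in the chosen cells was 40.5% and 46.2% of that over all barcodes. The free RNA percentages of the 2 libraries have these same values. They treat all elongating spermatid transcripts in the chosen cells as free RNA, which was not tested. Sertoli cell genes, 15 in all, summed to 574 and 294 CPM, against 12929 and 14604 CPM in Sertoli cells. The list holds Clu, Amhr2, Sox9, Cldn11 and Aard, by which the Sertoli cells were chosen, so their high level was partly set by that choice. Amh was at 0 in both libraries while Sox9, Wt1 and Fshr were at 0 in the high-fat library. The Sertoli list stood at 158 and 197 CPM in spermatogonia, 62.3 and 118 CPM in pachytene cells and 748 and 1187 CPM in other barcodes of the depth range. In the chosen cells the median was 0 Sertoli UMIs, 14% and 7% held 3 or more, and single cells reached 35 and 18. Leydig cell genes summed to 13.4 and 39.6 CPM, stromal genes to 22.3 and 65.4 CPM, macrophage genes to 2.23 and 6.89 CPM and lymphocyte genes to 42.4 and 98.1 CPM. In the high-fat library 1 cell held 42 lymphocyte UMIs and 1 held 16 Leydig UMIs. Undifferentiated spermatogonia genes summed to 118 and 74.0 CPM, with Nanos2, Eomes, Neurog3 and Upp1 at 0 in both. The chosen cells thus held few interstitial and immune transcripts and more Sertoli transcripts than the spermatogonia and pachytene cells. Their elongating spermatid transcripts stood above those of pachytene cells and below those of other barcodes of the depth range.

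Between the libraries, the summed levels of the axis and central region lists were higher in the chosen cells of the high-fat library. Of 8335 genes with at least 20 counts over the chosen cells, 6.62% were at least 2-fold higher in the high-fat library and 7.88% at least 2-fold lower, and the median log2 ratio was 0.0039. The summed axis and cohesin list stood at 3694 and 4977 CPM, a log2 ratio of 0.43 (0.34 to 0.52), but the median over its 15 measured genes was −0.03. Sycp3 alone gave 454 and 1308 of the list's 1655 and 2891 counts. Sycp3 was higher by 2.22-fold (2.00 to 2.48), against a log2 ratio of 0.33 over all barcodes, and Smc1a was the other gene past 2-fold, on 8 and 23 counts. The high-fat library was also the higher in pachytene cells, at 747 and 1212 CPM for Sycp3, 383 and 600 CPM for Sycp1 and 1899 and 2482 CPM for the summed axis list. In round spermatids the axis list stood at 656 and 1066 CPM and in spermatogonia at 1211 and 1089 CPM. The central region list was higher both summed, by 0.47 (0.37 to 0.57), and at its median of 0.43, with 0 of 6 genes past 2-fold. The order-statistic interval of that median over genes was −0.34 to 0.75. Sycp1 was 1.69-fold (1.49 to 1.91) higher, Syce3 1.58-fold (1.34 to 1.86) higher and 4930447C04Rik 1.59-fold (1.33 to 1.89) higher. Syce1 was lower, at a ratio of 0.791 (0.645 to 0.971), and the intervals of Syce2 and Tex12 include 1. The marker genes themselves, summed, were 1.27-fold (1.15 to 1.40) higher, which the rule makes a description, and more cells of the high-fat library had 5 or more marker UMIs (105 against 47). The part of marker content and depth in these ratios was not tested. Among cells with at least 2 different markers the summed log2 ratios were 0.32 for the axis and 0.37 for the central region.

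The lists for break formation (−0.06, −0.19 to 0.07), strand exchange (−0.09, −0.20 to 0.02), crossovers (0.03, −0.15 to 0.21), telomere attachment (−0.01, −0.24 to 0.21) and silencing (0.04, −0.09 to 0.17) had summed log2 ratios whose counting intervals include 0. Of the 13 measured break genes, Mei1 alone passed 2-fold, at 136 and 56.8 CPM (61 and 33 counts), while over all barcodes its log2 ratio was 1.11 in the other direction. Of 25 strand exchange genes, Rpa3 and Mnd1 were at least 2-fold higher and Rad54l and Mre11a at least 2-fold lower, each on 34 counts or fewer in either library. Ccnb1ip1 was lower among 14 crossover genes, and Fancd2, a DNA repair gene, was lower among 15 silencing genes, at 87.1 and 27.5 CPM, with 53.8% of its counts in the unlabelled-diet library from 1 cell. Such counts lie near the background shares of 6.62% and 7.88%.

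DNA replication genes were lower in the high-fat library. The summed log2 ratio was −0.42 (−0.56 to −0.28) and the median over 21 measured genes was −0.44. Of these genes, 2 (Pola2 and Rfc3) were at least 2-fold lower and Fen1 at least 2-fold higher, near the background shares of 7.88% and 6.62%. Pola2, a subunit of the replicative primase complex, stood at 105 and 48.2 CPM. When cells were chosen with at least 2000 UMIs, the summed log2 ratio was −0.03 and the median 0.07, and 89 and 118 of those cells were among the 200 described here. The list of heat shock and tissue dissociation genes was higher, with a summed log2 ratio of 0.53 (0.42 to 0.64) and a median of 0.40 over 10 genes. Of these, 1 of 10 (Jund, not a heat shock gene) was past 2-fold, near the background of 6.62%. The order-statistic interval of that median over genes, which are not replicates, was −0.13 to 0.82. Other cells differed in the same direction: the list stood at 2458 and 3698 CPM in pachytene cells, 1299 and 2120 CPM in round spermatids, 1997 and 3209 CPM in Sertoli cells and 2430 and 2682 CPM in spermatogonia. Hsp90aa1, a chaperone gene, stood at 1359 and 2131 CPM in the chosen cells, a log2 ratio of 0.65, against 0.39 over all barcodes. It gave 609 and 1238 of the list's 1005 and 1884 counts. Jund had 1.18, against 1.27 over all barcodes.

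**Figure D5:**
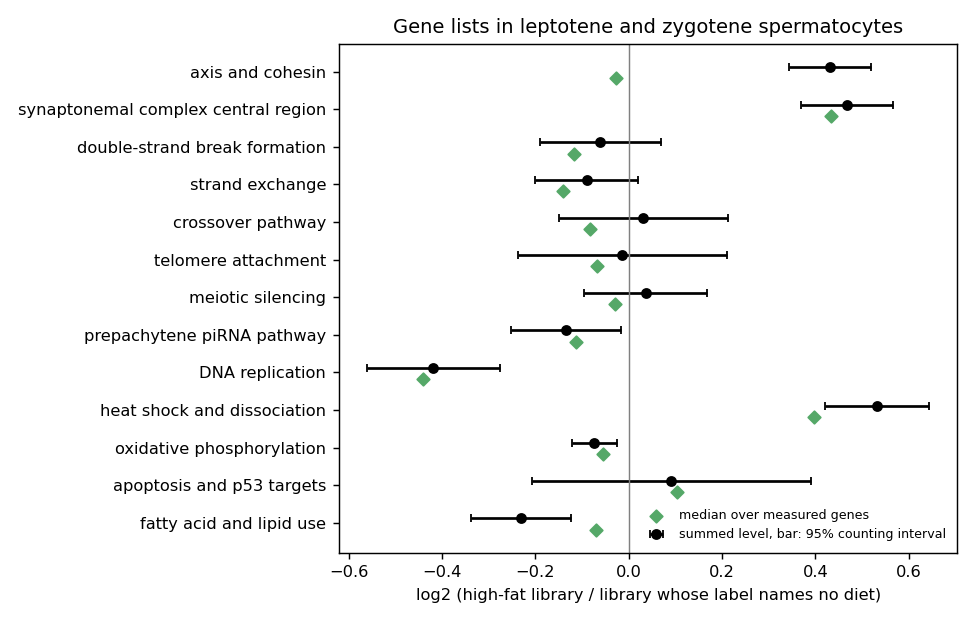
Log2 ratio of the high-fat library over the unlabelled-diet library in the chosen cells for 13 gene lists. Black points are the summed levels with exact conditional binomial 95% intervals for counting error, and green diamonds are medians over the measured genes. The axis, central region and heat shock and dissociation lists lie above 0 by their summed level, with the axis median at −0.03. The replication list lies below 0 at −0.42.

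Genes of lipid use summed to 3038 and 2589 CPM, a log2 ratio of −0.23 (−0.34 to −0.12), with a median of −0.07 over 16 genes. Fabp9, the fatty acid binding protein of spermatocytes and spermatids, held most of that sum at 1915 and 1462 CPM, and in pachytene cells it stood at 5411 and 5122 CPM. Srebf2, a regulator of cholesterol synthesis, was the 1 gene past 2-fold, at 69.2 and 27.5 CPM. Cd36 had 0 counts in both. Oxidative phosphorylation genes summed to a log2 ratio of −0.07 (−0.12 to −0.02), with Cox7b and Cyct at least 2-fold lower of 34. Apoptosis genes had 0.09 (−0.21 to 0.39) over 6 measured genes, and the piRNA list −0.13 (−0.25 to −0.02) with Tdrd1 at least 2-fold lower of 15. The 2-fold counts of the lipid, oxidative phosphorylation and piRNA lists lie near the background share of 7.88% of all 8335 genes. Pachytene genes were lower, at a summed log2 ratio of −0.37 (−0.42 to −0.31) with Piwil1 at 246 and 51.7 CPM and Clgn, a chaperone gene, at 413 and 212 CPM. The summed log2 ratio of Sertoli genes was −0.96 (−1.25 to −0.68), that of elongating spermatid genes 0.62 and that of round spermatid genes 0.33. The chosen cells of the libraries thus also differed in transcripts of other cells and stages, whose part in the ratios above was not tested.

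By the rule for single genes (at least 50 counts, a counting interval that leaves out 1, 10% of cells with a UMI and no cell with over 20% of the counts), the 10 with the highest and the 10 with the lowest ratio mostly also differed over all barcodes. Rpl26, Rpl14, Rpl13 and Rpl35a had log2 ratios of 4.75, 3.38, 2.83 and 2.62 in the chosen cells and 4.44, 3.86, 3.29 and 2.83 over all barcodes. On the lower side, Rps24-ps3, Gm15772, Gm6218, Gm11942, Gm10036, Gm12346 and Rps13-ps1 are processed pseudogenes, with log2 ratios from −6.08 to −4.14 in the chosen cells and from −10.42 to −4.40 over all barcodes for these and Lsm10. Of these, Gm6218, Gm11942 and Gm10036 had 0 counts in the chosen cells of the high-fat library, and their ratios there are bounds against a floor of 3 counts. Ribosomal protein genes and their pseudogenes share near-identical sequence, so the split of their reads is uncertain. Likewise 4933432K03Rik, Atp6ap1l, Dynlt1f and Gm11290 were higher in the chosen cells and over all barcodes, Atp6ap1l from 0 counts.

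The remaining 4 of these 20 genes differed in the chosen cells far more than over all barcodes. Elfn2, which encodes a transmembrane protein with leucine-rich repeats, stood at 152 and 5.17 CPM (68 and 3 counts), a ratio of 0.0340 (0.00685 to 0.104), and its log2 ratio was −4.88, against −0.45 over all barcodes. The long non-coding RNA Gm10619 stood at 156 and 12.1 CPM (70 and 7 counts), with a log2 ratio of −3.70, against −0.21. Both stood higher in pachytene cells, at 372 and 246 CPM for Elfn2 and 385 and 293 CPM for Gm10619, as Piwil1 did. In the other direction, A830018L16Rik stood at 6.70 and 82.6 CPM (3 and 48 counts) and Gm11457 at 13.4 and 112 CPM (6 and 65 counts), with log2 ratios of 3.63 and 3.06, against 0.57 and 0.29 over all barcodes. Of the Elfn2 counts in the unlabelled-diet library, 16.2% came from 1 cell, and of the A830018L16Rik counts in the high-fat library 8.33% did.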

How the data were processed

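Droplet single-cell RNA sequencing of mouse testis gave 1 library per group, each deposited by the authors as a matrix of raw UMI counts per gene and barcode. PISA 1.0 is named per the file headers and Cell Ranger 2.1.1 per the submitters' processing notes. The aligner, genome build and annotation were not given in the sources used here. Both samples were labelled as germ cells, and no step that selects them is described.

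Counts were summed over the chosen cells and divided by their UMIs to give CPM, with exact intervals from scipy 1.17.1. With 1 library per group no p-value was computed. Cells are not replicates. A level of 0 was set to a floor of 3 counts for a fold. The marker lists, the members and the gene lists were chosen with earlier results of these data known. The genes named are those of the lists, the 15 that most exceed other barcodes and the 10 highest and 10 lowest between libraries, under the count limits stated with them. The calculations were tested on simulated Poisson counts, which hold no spread between cells beyond counting error.

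Doublet scores came from Scrublet in scanpy 1.11.5. Its automatic threshold called 652 barcodes (4.72%) in one library and 0 in the high-fat library, so doublets were kept, and leaving out the top 6% of scores in each library was tried instead. The top scores held 2 and 8 of the chosen cells. Barcode names hold cell numbers without a sequence, and 1507 names occur in both libraries, so shared barcode sequences could not be counted. Other alternatives were 100 or 400 cells, a minimum of 2000 UMIs, no upper limit, no exclusion genes, equal weight per cell, free RNA subtracted, cells with at least 2 different markers, and cells shared with pachytene cells left out. Some results are not reported here.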

Additional observations from a re-analysis of the deposited data

How the results depend on the processing

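No paired analysis was possible because there was 1 library per group. Of the values under alternatives of the list sums, list medians, left-out markers and stage comparisons, 290 stayed within the interval of the main value, 51 moved and 3 reversed. That interval covers counting error, except for list medians, where it is the order-statistic interval over genes. List medians made up 165 of the 290. Of the values for single named genes 18 moved and 0 reversed. All values are log2 and the cause was not tested. The alternatives that used at least 2 different markers, that left out cells shared with pachytene cells or that used the top doublet scores, and those of the stage comparisons, were chosen after seeing the data. Leaving out cells whose barcode sequence is in both libraries was not run, since the names hold no sequence.

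With 100 cells per library the summed ratio was 0.31 for the axis, 0.28 for the central region, −0.32 for break formation, −0.22 for strand exchange, −0.11 for lipid use, and changed sign for the piRNA list (0.15) and oxidative phosphorylation (0.031). With 400 cells it was 0.10 for break formation, −0.0021 for the piRNA list, −0.16 for replication (median −0.13) and −0.14 for oxidative phosphorylation. With a minimum of 2000 UMIs it was 0.66 for the axis (median 0.29), 0.67 for the central region, 0.26 for break formation (median 0.32), 0.14 for strand exchange, 0.28 for crossovers, 0.28 for silencing, −0.032 for replication (median 0.071, a change of sign), −0.22 for oxidative phosphorylation and −0.51 for lipid use. With no upper limit it was −0.15 for oxidative phosphorylation and −0.37 for lipid use. In cells with at least 2 different markers it was 0.32 for the axis, 0.37 for the central region and −0.20 for break formation. With equal weight per cell it was 0.13 for break formation and −0.10 for lipid use. With free RNA subtracted it was 0.60 for the central region, −0.27 for the piRNA list and 0.66 for heat shock and dissociation. Free RNA was set at 40.5% and 46.2%, the values of the elongating spermatid genes, and not from empty droplets. Without cells shared with pachytene cells it was 0.021 for strand exchange.

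The axis, central region and break lists together exceeded pachytene cells by 0.97 in the unlabelled-diet library, and by 1.24 with 100 cells, 0.62 with 400, 0.65 with at least 2000 UMIs and 1.15 with at least 2 different markers. In the high-fat library the excess was 1.04, and 1.14 with 100 cells, 0.77 with 400, 0.97 with at least 2000 UMIs, 1.10 with no upper limit, 1.11 with at least 2 different markers and 1.15 without shared cells. Over spermatogonia it was 1.37 in the unlabelled-diet library, and 1.63, 1.02 and 1.05 with 100 cells, 400 cells and at least 2000 UMIs, 1.54 with at least 2 different markers and 1.27 without shared cells. In the high-fat library it was 1.87, and 1.97, 1.60 and 1.80 with 100 cells, 400 cells and at least 2000 UMIs and 1.79 without shared cells. The direction of these stage differences was kept under each alternative listed.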
